A study of Mus musculus with 16 samples.

Results

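Of the 6353 regions that Bcl11a occupied in MPP3 cells of mouse bone marrow, 846 (13.3%) lay at a gene end and carried no Spi1 region in WT-iMOS cells. Each of these 846 regions came from merging the Bcl11a peaks of 6 libraries wherever they shared at least 1 bp, had a peak in at least 2 of the 6, shared no base with a Spi1 region built in the same way from 6 Spi1 WT-iMOS libraries, and had its midpoint within 1 kb of the start or end of a protein-coding gene. They made up 846 of the 1995 Bcl11a regions without Spi1, and 975 genes had an end within 1 kb of one. The regions were thus chosen by presence of Bcl11a, lack of a Spi1 region in WT-iMOS cells and closeness to a gene end. These values are given as description, with no test. In what follows, without Spi1 means without such a Spi1 region, and not without any Spi1 peak. A Spi1 peak was called in no WT-iMOS list at 508 of the 846 regions, in exactly 1 list at 328 and in exactly 2 at 10.

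Bcl11a is a zinc finger repressor that recruits the NuRD deacetylase complex and is best known for silencing fetal globin genes, where its zinc fingers read a short TGACCA motif next to a CCAAT box, the site of the activator NF-Y. Spi1 (PU.1) is an ETS factor that binds purine-rich motifs with a GGAA core and directs myeloid and lymphoid development, mostly from distal enhancers. Promoters with many CG dinucleotides belong mainly to genes that most cells use, and they are open in most cells.

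The binding of both factors was profiled by CUT&Tag, in which an antibody tethers a transposase that cuts and tags the DNA near the bound protein. For Bcl11a there were 3 T2 and 3 T1 libraries, all of WT-iMOS mice. For Spi1 there were 2 T2 and 2 T1 libraries of KO-iMOS mice, and 3 T2 and 3 T1 libraries of WT-iMOS mice. The cells were multipotent progenitors labelled MPP3, and the 3m in every library title is not explained. The meaning of iMOS, T1 and T2 is absent from the labels, which do not state which allele KO refers to or whether replicates came from separate animals, so the spread between libraries may be technical. Peak lists hold no expression, and neither the MPP3 label nor the loss of a gene in KO-iMOS cells can be checked from them. Peak names inside the lists began with PKO in the KO-iMOS T2 libraries but with PWT in the KO-iMOS T1 libraries, and the groups here follow the labels. The prefix differed between T2 and T1 in the other groups too. It was BMG and BWG for Bcl11a, and PMG and PWG for Spi1 in WT-iMOS, and its meaning is not given. The lists held 2719 to 20241 peaks, their read depth is unknown, and a longer list can come from deeper sequencing as well as from more binding.

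Promoter sequences of the 6 highest ranked regions that covered a gene's 5′ start with a sequence at hand show their make-up. Spi1 was called at Kpnb1 and Sacm1l in 3 of the 4 KO-iMOS libraries, at Wdr5 and Ptges2 in 2, and at Rabgef1 and Prkd2 in none. The windows are from RefSeq on GRCm38.p6, the assembly behind mm10, and run from 250 bases before to 50 bases after the gene's start, written 5′ to 3′ on the gene's strand. Capitals mark CCAAT, or ATTGG where the box lies on the opposite strand. The windows are chr11:97187843-97188142 on the minus strand for Kpnb1, chr9:123529503-123529802 on the plus strand for Sacm1l, chr5:130171569-130171868 on the plus strand for Rabgef1, chr2:27514897-27515196 on the plus strand for Wdr5, chr2:32395640-32395939 on the plus strand for Ptges2 and chr7:16842652-16842951 on the plus strand for Prkd2.
Kpnb1: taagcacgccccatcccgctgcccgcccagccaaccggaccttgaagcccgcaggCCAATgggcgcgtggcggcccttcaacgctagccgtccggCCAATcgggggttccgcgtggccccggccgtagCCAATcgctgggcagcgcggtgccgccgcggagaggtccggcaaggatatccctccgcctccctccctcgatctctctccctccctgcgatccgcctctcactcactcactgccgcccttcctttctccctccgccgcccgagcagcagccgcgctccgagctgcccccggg
Sacm1l: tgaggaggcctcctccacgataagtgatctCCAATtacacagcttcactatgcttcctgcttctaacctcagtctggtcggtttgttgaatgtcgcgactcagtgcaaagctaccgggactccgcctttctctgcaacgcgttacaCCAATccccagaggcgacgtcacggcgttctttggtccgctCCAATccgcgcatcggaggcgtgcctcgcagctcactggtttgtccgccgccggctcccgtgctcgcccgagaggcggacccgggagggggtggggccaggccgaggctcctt
Rabgef1: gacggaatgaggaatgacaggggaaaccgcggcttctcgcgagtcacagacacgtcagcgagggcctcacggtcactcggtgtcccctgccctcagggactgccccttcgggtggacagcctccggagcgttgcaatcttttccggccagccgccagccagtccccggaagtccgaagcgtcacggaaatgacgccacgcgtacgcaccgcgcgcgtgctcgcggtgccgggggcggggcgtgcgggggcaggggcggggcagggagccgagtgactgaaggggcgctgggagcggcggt
Wdr5: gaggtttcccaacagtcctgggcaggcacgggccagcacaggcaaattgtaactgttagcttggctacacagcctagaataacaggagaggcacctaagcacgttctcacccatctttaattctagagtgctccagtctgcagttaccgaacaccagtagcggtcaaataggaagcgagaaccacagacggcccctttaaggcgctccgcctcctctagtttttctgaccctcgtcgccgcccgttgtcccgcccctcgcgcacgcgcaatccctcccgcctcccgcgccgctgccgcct
Ptges2: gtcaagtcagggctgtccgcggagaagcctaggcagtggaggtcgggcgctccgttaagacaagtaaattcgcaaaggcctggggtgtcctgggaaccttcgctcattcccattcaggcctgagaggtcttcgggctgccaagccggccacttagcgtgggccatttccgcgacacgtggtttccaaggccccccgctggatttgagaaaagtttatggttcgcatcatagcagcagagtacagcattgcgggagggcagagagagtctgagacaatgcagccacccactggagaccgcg
Prkd2: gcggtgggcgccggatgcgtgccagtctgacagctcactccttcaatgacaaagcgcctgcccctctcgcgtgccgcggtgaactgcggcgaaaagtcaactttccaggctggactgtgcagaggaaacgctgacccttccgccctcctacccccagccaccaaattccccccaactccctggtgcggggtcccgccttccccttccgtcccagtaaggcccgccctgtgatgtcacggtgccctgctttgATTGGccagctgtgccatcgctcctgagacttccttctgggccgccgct
The windows of Kpnb1 and Sacm1l each held 3 CCAAT boxes and that of Prkd2 held 1, while Rabgef1, Wdr5 and Ptges2 held 0. CG dinucleotides numbered 35 in Kpnb1, 27 in Sacm1l, 37 in Rabgef1, 22 in Wdr5, 18 in Ptges2 and 21 in Prkd2.

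T1 libraries, and in particular T1 replicates 2 and 3, supplied most of the 846 regions. Bcl11a was called at 137, 174 and 198 of them in T2 replicates 1, 2 and 3, and at 225, 730 and 786 in T1 replicates 1, 2 and 3. T1 replicate 1 thus stood close to the T2 libraries, while T1 replicates 2 and 3 held at least 86.3% of the regions each. The mean share was 20.1% ± 3.63 (SD, n = 3) in T2 and 68.6% ± 36.5 (SD, n = 3) in T1. The lists were also of unequal length, with 4786, 2719 and 3287 peaks in T2 and 4300, 5964 and 7382 in T1. The same 2 T1 libraries held 51.2% and 56.7% of the Bcl11a regions without Spi1 that lay farther from genes, against 25.3% to 50.4% in the other 4 libraries, so that they stood apart less there. At gene-end regions with Spi1 they held 93.4% and 97.0%, against 26.7% to 49.9% in the other 4 libraries, so that the lead of this pair was shared by gene-end Bcl11a regions of both kinds. No test of T2 against T1 was made on these calls, because the calls chose the regions.

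**Figure D1:**
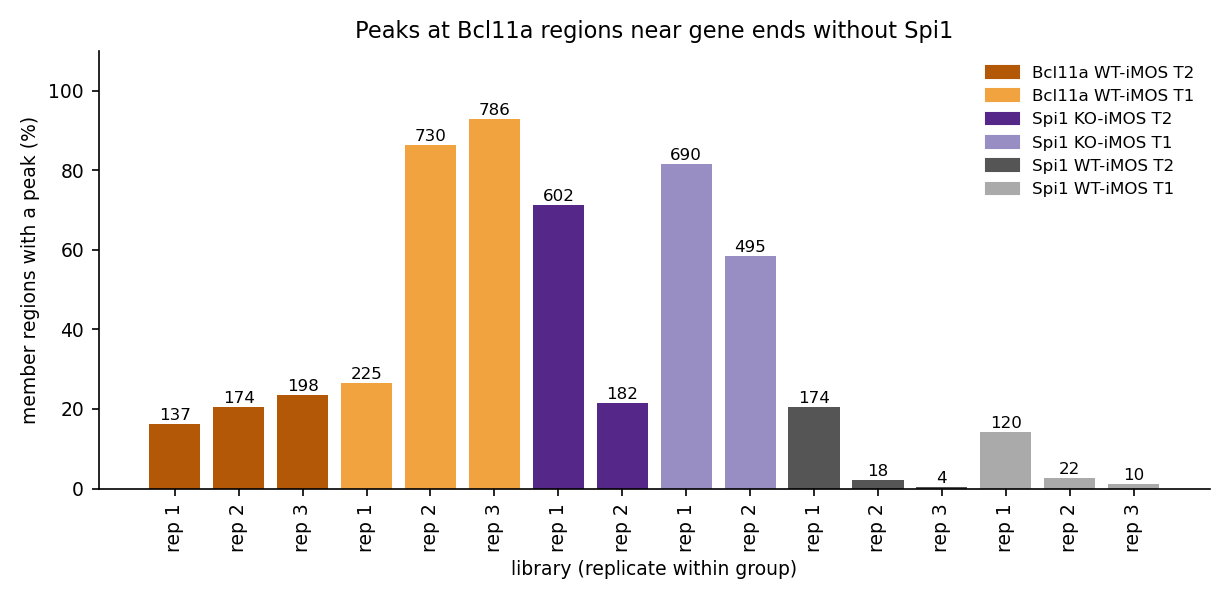
Bars give the percentage of the 846 gene-end regions with a peak in each of the 16 libraries, with the number of regions above each bar and one colour per group. Bcl11a T1 replicates 2 and 3 reach 86.3% and 92.9%, the 4 other Bcl11a libraries lie between 16.2% and 26.6%, and the Spi1 KO-iMOS libraries lie between 21.5% and 81.6%.

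Counted by region, 13 were called in T2 libraries only, 322 in both and 511 (60.4%) in T1 libraries only. T1 libraries alone gave 48.8% of gene-end regions with Spi1 and 31.5% of all Bcl11a regions. T2 libraries alone gave 1.54% of the 846 regions, 0.437% of gene-end regions with Spi1 and 5.49% of all Bcl11a regions. For regions called in both, these shares were 38.1%, 50.8% and 63.0%. The 60.4% was 24.7% without T1 replicate 2, 24.0% without T1 replicate 3 and 36.2% with every list cut to its 2719 strongest peaks. T1 replicates 2 and 3 alone gave 393 regions (46.5%), which no other Bcl11a library called, and 831 regions had a peak in at least 1 of these 2 libraries. Among the Bcl11a regions without Spi1 farther from genes, 193 of 1149 (16.8%) came from this pair alone, as did 369 of 1144 gene-end regions with Spi1 (32.3%) and 1273 of all 6353 Bcl11a regions. All 6 Bcl11a libraries called 28 of the 846 regions (3.31%), against 11.0% of gene-end regions with Spi1 and 13.8% of all Bcl11a regions. Exactly 2 libraries called 523 (61.8%), against 38.5% and 42.1%. Regions without Spi1 farther from genes were near the 846 in both, with 1.91% called in all 6 libraries and 65.2% in exactly 2. Regions with Bcl11a in 3 of 3 T2 and 0 of 3 T1 libraries numbered 2 of 846, a share of 0.236% against 1.12% of all Bcl11a regions. The opposite pattern, 0 of 3 T2 and 3 of 3 T1, held for 73 regions (8.63%) against 6.94% of all Bcl11a regions. Without T1 replicates 2 and 3 the same rule left 177 gene-end regions. Without replicate 2 alone it left 413, and without replicate 3 alone 371.

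**Figure D2:**
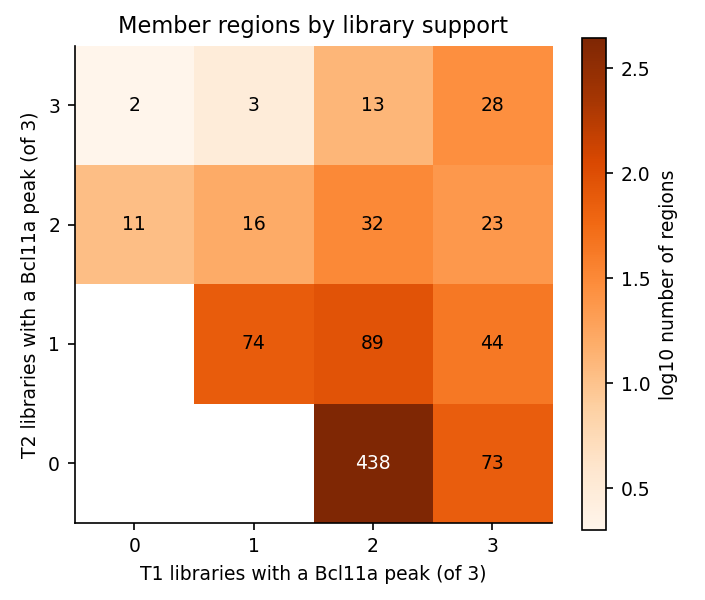
Each cell gives the number of gene-end regions called for Bcl11a in that many T2 libraries (vertical axis) and T1 libraries (horizontal axis), coloured on a log10 scale; empty cells are combinations under 2 libraries. The largest cell holds 438 regions called in 0 T2 and 2 T1 libraries, and 28 regions were called in all 6.

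Bcl11a peaks at these regions were of low to middling rank in their lists. The median percentile of the deposited −log10 p, where 100 is the strongest peak of a library, was 34.5, 31.9 and 38.7 in T2 replicates 1, 2 and 3. It was 32.6, 46.1 and 52.3 in T1 replicates 1, 2 and 3. At gene-end regions shared with Spi1 the medians were 48.0 to 54.8 in T2 and 51.3 to 74.2 in T1, higher in each of the 6 libraries. At regions without Spi1 farther from genes they were 40.7, 37.1 and 39.6 in T2 and 40.3, 39.4 and 41.9 in T1. The 846 regions stood above these only in T1 replicates 2 and 3. The 846 regions were 514 bp wide at the median (quartiles 407 and 640). Gene-end regions shared with Spi1 were wider, at 620 bp, and regions without Spi1 farther from genes narrower, at 441 bp. A wider region meets the 1 bp overlap with Spi1 more easily, so the first contrast is not independent of the rule. Deposited fold enrichments are the authors' own and are set against each list's local background, so they are read here within a library only.

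The regions sat on the 5′ starts of genes far more than on their 3′ ends. The nearest gene end was a 5′ start for 684 regions (80.9%) and a 3′ end for 23 (2.72%), and for 139 the table of sequences gave no strand. Gene-end regions with Spi1 were alike, with a 5′ start nearest at 79.4% and a 3′ end at 3.41%. Where a 5′ start was nearest, the Bcl11a summit lay at a median of 13.8 bp downstream of it (quartiles −143 and 173 bp), and 73.1% of summits were within 250 bp. The median distance of the midpoint from the gene end was 158 bp, well inside the 1 kb limit, and 11 regions lay in the last 100 bp of that limit against 13 in the 100 bp beyond it. The regions nearest the limit were at Sft2d3 (999 bp) and Tob1 (985.5 bp) inside it and at Gm40369 (1000.5 bp) and Git2 (1001 bp) outside it. At 134 regions (15.8%) 2 or more genes had an end within 1 kb, and 83 (9.81%) held 5′ starts on opposite strands. Among gene-end regions with Spi1 these shares were higher, at 22.6% and 13.9%. The nearest Spi1 WT-iMOS region was 41846 bp away at the median, and it lay within 500 bp of 11 regions (1.30%). Regions without Spi1 farther from genes were alike, at 47667 bp and 21 regions (1.83%).

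The regions with Bcl11a in all 6 libraries and the highest ranks were at Kpnb1, Sacm1l, Cyth1, Rabgef1, Wdr5, Ptges2, Tial1, Prkd2 and a pair of histone loci. Kpnb1, which encodes importin beta, the carrier for nuclear import, led with a region at chromosome 11, 97187068 to 97188615 (mm10). Its deposited fold enrichment for Bcl11a was 6.39, 5.87 and 8.39 in T2 replicates 1, 2 and 3 and 5.52, 7.34 and 9.18 in T1 replicates 1, 2 and 3. Spi1 at this region was 6.83 in KO-iMOS T2 replicate 1, 8.87 and 5.40 in KO-iMOS T1 replicates 1 and 2, and 5.03 and 4.19 in replicate 1 of WT-iMOS T2 and T1, with no peak in the other 5 Spi1 libraries. It thus carried a peak from 2 WT-iMOS lists that did not touch each other, which is why no Spi1 region was formed there; 10 of the 846 regions were of this kind. Next came Sacm1l, a phosphoinositide phosphatase (chromosome 9, 123529562 to 123530036), and Cyth1, an activator of ARF GTPases (chromosome 11, 118248283 to 118249034). Spi1 was called at Sacm1l in 3 of 4 libraries of KO-iMOS and 1 of 6 libraries of WT-iMOS, and at Cyth1 in 4 of 4 and 1 of 6. Wdr5, a subunit of the complexes that methylate histone H3 at lysine 4, Ptges2, a prostaglandin E synthase, and Tial1, an RNA-binding protein, had Spi1 in 2, 2 and 3 of 4 KO-iMOS libraries, each with 1 of 6 in WT-iMOS.

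Of these leading regions, Rabgef1 and Prkd2 had no Spi1 peak in any library. Rabgef1 activates the endosomal GTPase Rab5, and its region (chromosome 5, 130171351 to 130172574) had Bcl11a fold enrichments of 6.45, 5.93 and 5.81 in T2 and 4.38, 6.52 and 6.47 in T1. Prkd2 encodes protein kinase D2, and its region (chromosome 7, 16842309 to 16842944) had 5.86, 6.02 and 4.71 in T2 and 4.23, 4.25 and 4.20 in T1. Bcl11a was thus called in every library at both. With Bcl11a in 5 of 6 libraries and Spi1 in none came Bax, a pro-apoptotic Bcl2 family protein, whose region lay 658 bp from the 3′ end of the gene, Sirt4, a mitochondrial sirtuin, Map7d1, a microtubule-associated protein, and Ptma, which encodes prothymosin alpha. No Spi1 peak in any of the 10 libraries was the case at 73 of the 846 regions (8.63%). Among the 1149 regions without Spi1 farther from genes it was the case at 355, a higher share of 30.9%. Over all Bcl11a regions it was 6.74%. That share is held low by the regions with Spi1, which carry a WT-iMOS peak by the rule and cannot be counted.

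The regions where T2 and T1 libraries did not overlap are given next. Rank by number of Bcl11a libraries placed them below the regions named above. With 3 of 3 T2 and 0 of 3 T1 libraries stood Cxxc5, a CXXC zinc finger protein, at Bcl11a fold enrichments of 4.60, 3.92 and 5.45 in T2, and Cers4, a ceramide synthase, at 4.93, 5.60 and 6.08. Cers4 also carried Spi1 in all 4 KO-iMOS libraries and in 1 WT-iMOS library. With 0 of 3 T2 and 3 of 3 T1 libraries the highest ranks went to Pcbp2, a poly(C)-binding protein (5.82, 5.85 and 8.81 in T1), Rps29, a protein of the small ribosomal subunit (5.50, 6.73 and 6.95), and Jund, an AP-1 factor (3.33, 4.28 and 5.21). Stk11, the kinase LKB1 (4.16, 5.54 and 5.44), and Gpcpd1, a glycerophosphocholine phosphodiesterase (6.55, 6.13 and 8.68), followed. With 3 libraries against 3 these are presence patterns only.

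In KO-iMOS cells Spi1 peaks were called at most of these regions. A Spi1 KO-iMOS peak was found in at least 2 of 4 libraries at 624 of the 846 regions (73.8%), against 51.9% of all Bcl11a regions. It was found in 4 of 4 libraries at 139 regions (16.4%), against 25.3% of all Bcl11a regions, and in 0 of 4 at 94 (11.1%), against 39.4% of all Bcl11a regions. By library, Spi1 was called at 602 and 182 regions (71.2% and 21.5%) in KO-iMOS T2 replicates 1 and 2, and at 690 and 495 (81.6% and 58.5%) in KO-iMOS T1 replicates 1 and 2. T2 replicate 2, the shortest KO-iMOS list with 6372 peaks against 13053 to 20241 in the other 3, stood apart at the low end.

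These KO-iMOS lists were not used to choose the regions, so their shares can be compared between classes of Bcl11a regions. The share with a Spi1 KO-iMOS peak was 58.2% ± 26.2 at the gene-end regions without Spi1 and 17.6% ± 9.16 at the regions without Spi1 farther from genes (mean ± SD, n = 4 libraries). The difference was 40.6 percentage points ± 17.2, from 15.8 to 54.1, positive in 4 of 4 libraries, and the exact two-sided sign-flip permutation test gave p = 0.13, the smallest 4 libraries allow. Among regions with 0 of 6 Spi1 WT-iMOS libraries the shares were 51.7% and 17.0%, a difference of 34.7 points (exact permutation p = 0.13). Gene-end regions shared with Spi1 in WT-iMOS cells had 86.6% ± 15.04 (n = 4). Set against genes in place of regions, 60.4% ± 26.5 of the 975 genes had a Spi1 KO-iMOS summit within 1 kb of an end and 21.5% ± 8.28 of all other protein-coding genes (n = 4, difference 38.9 points, exact permutation p = 0.13). In at least 2 of 4 KO-iMOS libraries this held for 747 of the 975 genes (76.6%), against 27.3% of all genes. The other genes were not matched on chromatin accessibility or expression.

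**Figure D3:**
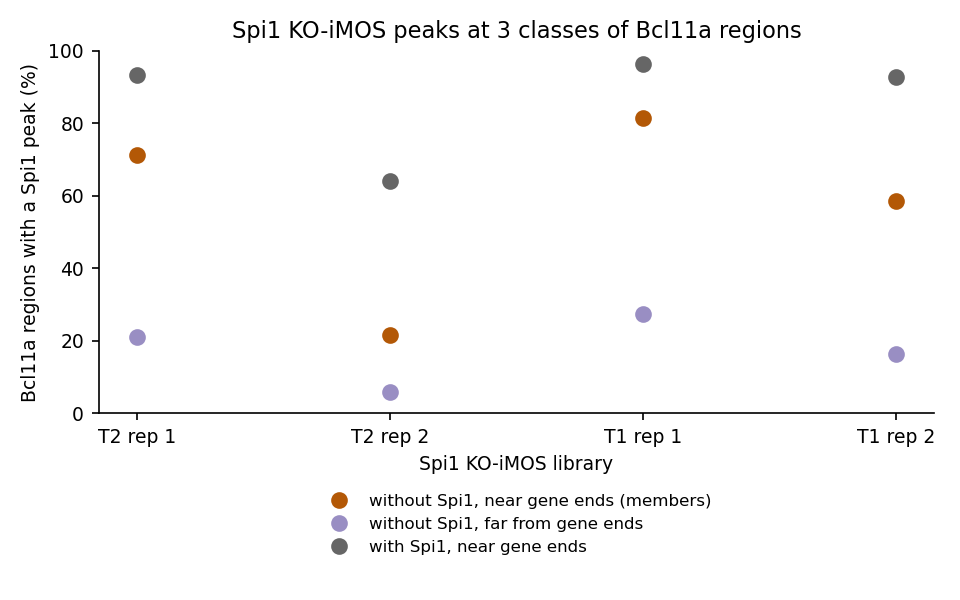
Points give, for each of the 4 Spi1 KO-iMOS libraries on the horizontal axis, the percentage of Bcl11a regions with a Spi1 peak, for gene-end regions without Spi1 in WT-iMOS, regions without Spi1 farther from genes, and gene-end regions with Spi1. In every library the first class lies between the other two, with 21.5% to 81.6% against 5.74% to 27.5% and 64.2% to 96.2%.

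These shares moved with list length. With every KO-iMOS list cut to its 6372 strongest peaks, a setting chosen after the data were seen, Spi1 was called at 24.4% and 21.5% of the regions in KO-iMOS T2 and 18.4% and 17.4% in KO-iMOS T1, and in at least 2 of 4 libraries at 23.3%. The shares farther from genes were then 3.13% to 5.74%, and the difference was 16.1 points, positive in direction in every library. The difference between the 975 genes and other genes was then 11.7 points, and 13.8 points with every list cut to 2719 peaks. In the 6 WT-iMOS lists Spi1 was called at 174, 18 and 4 regions in T2 and 120, 22 and 10 in T1. These WT-iMOS values are held low by the choice of regions and cannot be tested against KO-iMOS. The single WT-iMOS peaks came mostly from the 2 longest WT-iMOS lists, with 166 from T2 replicate 1 and 113 from T1 replicate 1 among the 328 regions that had a peak in exactly 1 list.

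Regions with Bcl11a in 4 or more libraries had Spi1 peaks in at least 2 of 4 KO-iMOS libraries somewhat more often. A peak in at least 2 of 4 KO-iMOS libraries was found at 72.3%, 71.7%, 81.0%, 80.6% and 85.7% of regions in 2, 3, 4, 5 and 6 Bcl11a libraries, with 28 regions in the last class. The same shares farther from genes were 16.6%, 25.6%, 37.8%, 44.7% and 50%, lower in each class, and the trend was not tested. At the gene-end regions without Spi1 the share with no KO-iMOS peak did not fall steadily. It was 11.7%, 9.44%, 8.86%, 16.7% and 10.7% in the same order. A peak in at least 2 of 4 KO-iMOS libraries was found at 75.6% of the 393 regions from T1 replicates 2 and 3 alone and at 76.2% of the 181 regions with at least 2 of the 4 other Bcl11a libraries. Regions nearest a 5′ start had 75.9% (519 of 684) and regions nearest a 3′ end 39.1% (9 of 23). Between the KO-iMOS groups the share was 46.3% in T2 and 70.0% in T1 (difference −23.7 points, exact two-sided permutation p = 0.67, with 0.33 the smallest that 2 against 2 allow). Without T2 replicate 2 the difference was 1.12 points, and with lists of equal length it was 5.02 points. Its direction thus changed with the setting, and the cause was not tested.

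Where both were called, the distance between Bcl11a and Spi1 summits was measured, which the width of the regions bounds. Across the 752 regions with a Spi1 KO-iMOS peak the summits were 88.8 bp apart at the median (quartiles 38.4 and 160 bp). The median was 107 bp at regions without Spi1 farther from genes and 78 bp at gene-end regions with Spi1. Spi1 KO-iMOS summits were at a median of 24 bp downstream of the 5′ start (quartiles −155 and 178 bp, 617 regions).

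**Figure D4:**
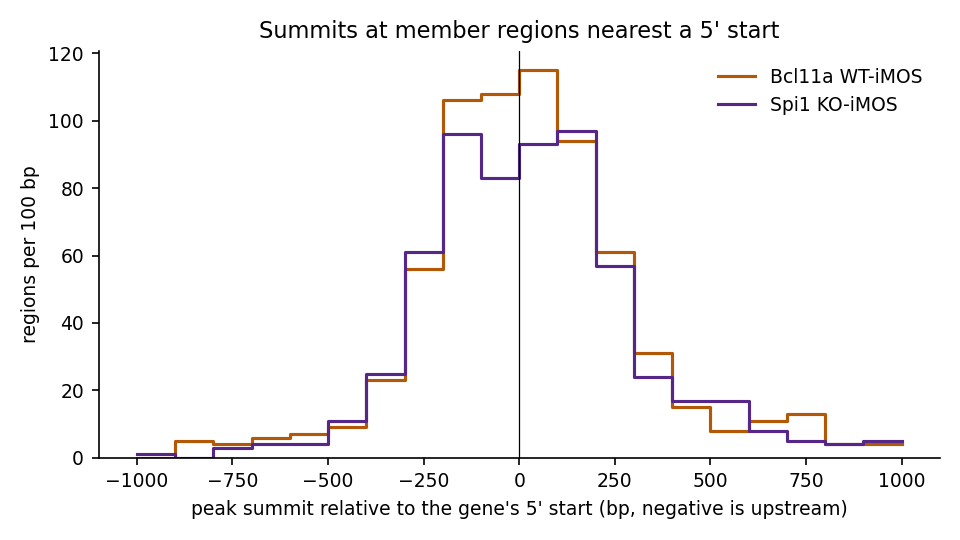
Lines give the number of gene-end regions nearest a 5′ start per 100 bp of distance between the gene's start (0, negative upstream) and the summit, as the median over the Bcl11a libraries (684 regions) or the Spi1 KO-iMOS libraries (617 regions). Both are centred near the start, with 73.1% of Bcl11a and 72.3% of Spi1 KO-iMOS summits within 250 bp.

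The regions with Spi1 in all 4 KO-iMOS libraries and no WT-iMOS library numbered 53 (6.26%). Among the regions without Spi1 farther from genes there were 9 (0.783%). The share of all Bcl11a regions was 0.976%, held low by the regions with Spi1, which carry a WT-iMOS peak by the rule. The highest ranked of the 53 was at the start of Stard7, a carrier of phosphatidylcholine to mitochondria (chromosome 2, 127269773 to 127270643). Its Bcl11a fold enrichments were 4.90, 7.13 and 5.55 in T2 and 5.97, 6.49 and 6.73 in T1, and those of Spi1 were 6.70 and 5.42 in KO-iMOS T2 and 6.52 and 4.79 in KO-iMOS T1. Next was the start shared by Slbp, the stem-loop binding protein of histone mRNAs, and Tmem129, a ubiquitin ligase of the endoplasmic reticulum (chromosome 5, 33652138 to 33652958). There Bcl11a stood at 4.26, 5.33 and 5.08 in T2 and 4.09, 6.16 and 6.73 in T1, and Spi1 at 5.92 and 7.21 in KO-iMOS T2 and 6.55 and 6.50 in KO-iMOS T1. Spi1 was therefore present in all KO-iMOS libraries and Bcl11a in all of its own at both. Shb, an SH2 domain adaptor of cytokine and antigen receptors, Stk32c, a serine/threonine kinase, and Zfp146, a zinc finger protein, had Bcl11a in 5 of 6 libraries. Phactr4, a regulator of protein phosphatase 1, Mtfr1, a regulator of mitochondrial fission, and Pkd2l1, a cation channel, had it in 4 of 6.

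Histone genes had the highest share among the gene lists. A region lay within 1 kb of an end of 27 of 72 histone genes (37.5%), against 4.45% of all protein-coding genes. Gene-end regions shared with Spi1 held 9.72% of the histone genes. These were 15 regions, 2 on chromosome 3 and 13 on chromosome 13, and 12 of them served at least 2 histone genes. The 2 on chromosome 3, at H2ac19 with H3c15 (96238926 to 96240409) and at H2ac18 with H3c14 (96245249 to 96246901), had Bcl11a in all 6 libraries. At H2ac19 the Bcl11a fold enrichment was 4.21, 4.96 and 5.80 in T2 and 4.91, 5.49 and 4.69 in T1, and Spi1 was called in no KO-iMOS library and in 1 WT-iMOS library. At H2ac18 it was 4.37, 6.29 and 4.50 in T2 and 5.54, 4.51 and 5.81 in T1, and Spi1 was called in 3 KO-iMOS libraries and no WT-iMOS library. Across the 15 regions, 7 had Bcl11a in at least 1 T2 library, 6 came from T1 replicates 2 and 3 alone, 8 had Spi1 in at least 2 KO-iMOS libraries and 4 in none. Histone genes of a class are near copies of each other, and rules for reads with several matches were not given in the sources used here, so which copy a peak belongs to is uncertain.

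Other lists of widely used genes held a few such genes each. Chaperone and mitochondrial import genes had 11 of 85 (12.9%), among them Hspa5, the main chaperone of the endoplasmic reticulum, with Bcl11a in 4 libraries and Spi1 in 2 KO-iMOS libraries. Chromatin modifiers had 12 of 105 (11.4%), among them Mbd3, a subunit of NuRD (Bcl11a in 5, Spi1 in 4 KO-iMOS), Smarca4, the ATPase BRG1 (3 and 3), and Ezh2 and Suz12, subunits of Polycomb repressive complex 2. Nuclear pore and transport genes had 4 of 45 (8.89%), with Kpnb1 and Nup98, a nucleoporin (4 and 3). Aminoacyl-tRNA synthetases had 3 of 35 (8.57%), translation factors 6 of 72 (8.33%), replication and repair genes 6 of 73 (8.22%) and splicing factors 6 of 82 (7.32%). Gene-end regions shared with Spi1 held more of these genes, with 18.8% of the chaperone and import list, 12.4% of chromatin modifiers, 11.1% of nuclear pore genes, 11.4% of tRNA synthetases, 20.8% of translation factors, 20.5% of replication and repair genes and 19.5% of splicing factors, against 6.37% of all genes. The translation count includes Eef1akmt2, a methyltransferase that its name brought into the list. Near or below the 4.45% of all genes were proteasome subunits (3 of 49, 6.12%), mitochondrial ribosomal proteins (4 of 79, 5.06%), cytosolic ribosomal proteins (3 of 87, 3.45%), oxidative phosphorylation subunits (3 of 88, 3.41%) and RNA polymerase II, Mediator and general factors (2 of 81, 2.47%). Of the partners of Bcl11a in globin silencing 2 of 20 had a region, Mbd3 and Rcor1, a subunit of the CoREST complex.

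Lists of lineage genes held 0 or 1 such gene each. Granulocyte and monocyte genes gave 1 of 36, Fcgr3, an Fc receptor, whose region at the 5′ start (chromosome 1, 171065708 to 171066146) was called for Bcl11a in 0 T2 and 2 T1 libraries and for Spi1 in 1 KO-iMOS and 0 WT-iMOS libraries. Stem and progenitor genes gave 1 of 30, Flt3, a receptor of early progenitors (Bcl11a in 1 T2 and 1 T1 library, Spi1 in 3 KO-iMOS and 1 WT-iMOS). Erythroid and megakaryocyte genes gave 1 of 30, Itga2b, the platelet integrin alpha IIb (Bcl11a in 3 T2 and 2 T1, Spi1 in 3 KO-iMOS and 1 WT-iMOS). Interferon and inflammation genes gave 1 of 25, Nfkbia, the inhibitor of NF-kappaB (Bcl11a in 1 T2 and 3 T1, Spi1 in 3 KO-iMOS and 0 WT-iMOS). Lymphoid genes gave 0 of 33 and genes of non-haematopoietic tissues 0 of 30. The Bcl11a and Spi1 genes had no such region. Counts this small do not separate these lists from the 4.45% of all genes.

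The promoters were rich in CG dinucleotides and in CCAAT boxes. Promoter windows of 300 bases were at hand for 17492 genes, and the start of 576 of them lay inside a gene-end region without Spi1. These 576 windows held 26 CG dinucleotides at the median (quartiles 20 and 33), against 13 (quartiles 3.75 and 24) in the windows of all genes, and 523 (90.8%) held at least 15, against 47.4% of all. The 800 windows in gene-end regions shared with Spi1 were alike, with a median of 24 and 88.6% holding at least 15. Motifs were therefore compared among windows with at least 15, searched on both strands. CCAAT was found in 51.4% of the windows in these regions and 37.0% of all such windows, and GGGCGG, the GC box of Sp1 and its relatives, in 86.2% and 77.4%. TGACCA, the Bcl11a motif, was found in 13.4% and 9.12%, and TGACGTC, the cAMP response element, in 8.80% and 6.55%. TGACCAAT, in which the Bcl11a motif and the CCAAT box overlap as they do in the fetal globin promoters, was found in 4.40% and 1.59%; it was added after the data were seen and is counted under both shorter motifs too. CCGGAAG, a motif of ETS factors, was found in 14.1% and 19.9%, and GAGGAAG, the form preferred by Spi1, in 8.80% and 11.6%. GCATGCG, from the NRF1 motif, was found in 6.69% and 7.72%, and AAGATGG, from the YY1 motif, in 8.03% and 6.95%.

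The 709 windows with at least 15 CG in gene-end regions shared with Spi1 stood on the other side for ETS motifs, with CCGGAAG in 22.6% and GAGGAAG in 14.7%. Regions with and without Spi1 were divided by the calls of Spi1, itself an ETS factor, so this contrast is not independent of the choice of regions. The 709 windows held CCAAT in 47.1%, TGACCA in 12.8% and TGACCAAT in 3.53%, close to the regions without Spi1. Counting all windows, GAGGAAG was found in 13.5% of the 111 in regions with Spi1 in 4 of 4 KO-iMOS libraries. It was found in 2.33% (1 window) of the 43 with Spi1 in 0 of 4. CCAAT was found in 60.4% and 39.5%. In the windows of all 17492 genes GAGGAAG was found in 13.5%, the same share as in the 111, and CCAAT in 39.0%. In the 800 windows in gene-end regions shared with Spi1 the shares were 15.9% and 47.0%. A match is a run of letters and not evidence of binding, and none of these shares was tested.

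**Figure D5:**
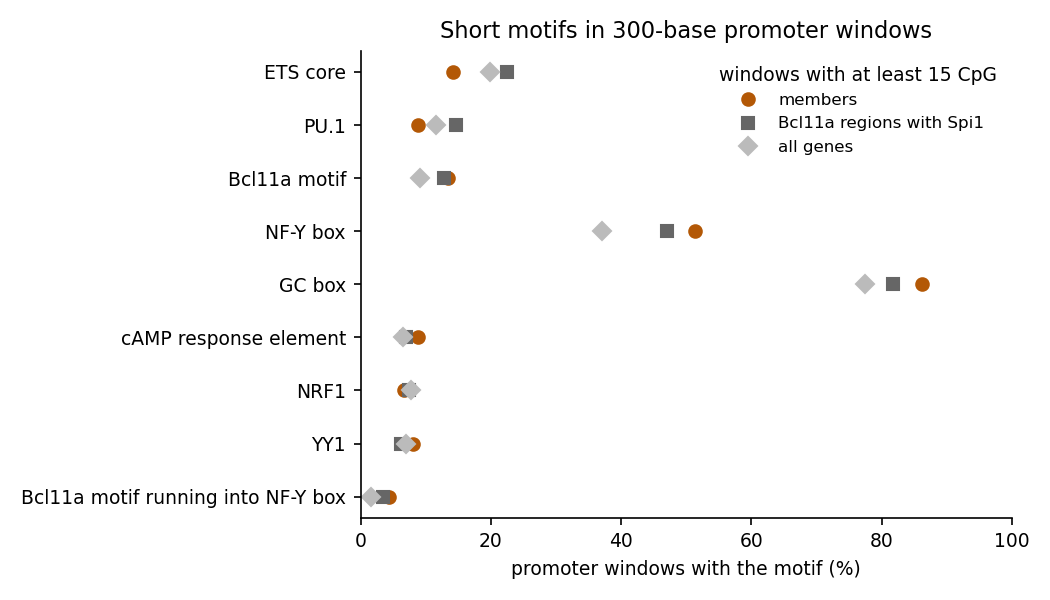
Points give the percentage of 300-base promoter windows holding each short motif, among windows with at least 15 CG dinucleotides, for starts inside gene-end Bcl11a regions without Spi1 (523 windows), inside those with Spi1 (709) and for all genes (8287). The NF-Y (CCAAT) box is found in 51.4%, 47.1% and 37.0%, and the ETS core in 14.1%, 22.6% and 19.9%.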

How the data were processed

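CUT&Tag peak lists of 16 libraries in 6 groups were used, grouped by the target in the title and the genotype label. Per the submitters' processing notes, Bowtie2, SAMtools, MACS2 and mm10 were used, without versions; the control and settings of peak calling were not given in the sources used here. The authors deposited 1 list per library, with a score, a fold enrichment (a ratio over local background), and −log10 p and −log10 q values, each q above 2 on that scale. No counts come with them, so depth is unknown. Fold and −log10 p were used only to describe or rank peaks within a list.

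Peaks on chromosomes 1 to 19, X and Y were merged at 1 bp overlap, keeping regions in at least 2 lists, and set against 21887 protein-coding genes (GRCm38.p6). Strand came from the RefSeq promoter table for 17492 of them. Regions were ranked by number of Bcl11a lists, then by mean percentile. By this rank the text names the top 10, the top 8 with Spi1 in 4 of 4 lists of KO-iMOS and no WT-iMOS list, the top 6 with no Spi1, up to 5 found in 1 of T2 or T1 only, and up to 3 per gene list, not all of which are given. Ezh2 and Suz12 were named after their values were seen. Regions and lists were chosen with earlier results of these data known. Shares in KO-iMOS libraries were compared by exact sign-flip or label permutation, two-sided. The rule was tested on simulated data. Alternatives changed the peak threshold, list length, overlap, number of lists, distance and libraries. No pair of lists shared more than 60 identical intervals. Python 3.11.15, numpy 2.4.6, pandas 2.3.3, scipy 1.17.1 and matplotlib 3.10.9 were used.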

Additional observations from a re-analysis of the deposited data

How the results depend on the processing

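The excess of Spi1 KO-iMOS peaks at gene-end regions without Spi1 over those farther from genes kept its direction in each of 26 alternatives (13.7 to 48.8 points; 35.9 to 48.8 with single libraries left out), as did that of their genes over other genes in each of 27 (11.7 to 47.6 points; 33.9 to 47.6 with single libraries left out). No design here could pass an adjusted or unadjusted threshold of 0.05, so these say nothing of significance. The number of regions was 508 when a Spi1 peak in any 1 WT-iMOS list counted, 323 with Bcl11a in at least 3 lists, 177 without Bcl11a T1 replicates 2 and 3 together, and 371 to 1020 without single libraries, with 413 without T1 replicate 2 and 371 without T1 replicate 3. The share called in T1 libraries only was 64.7% with −log10 q of at least 5, 36.2% with every list cut to 2719 peaks, 65.2% with any Spi1 peak, 22.6% with 3 lists, 0% without T1 replicates 2 and 3, where only 1 T1 library is left, and 24.0% to 70.7% without single libraries. The share with Spi1 in at least 2 KO-iMOS libraries was 17.8% with every list cut to 2719 peaks, 23.3% with KO-iMOS lists cut to 6372 (chosen after seeing the data), 66.5% with any Spi1 peak, 69.1% at 3 kb, and 55.3% to 77.4% without single libraries. The T2 minus T1 difference reversed to 5.20 points with every list cut to 2719 peaks and to 5.02 with KO-iMOS lists cut to 6372, and ranged from −48.5 to 1.12 without single libraries; the cause was not tested. With the replicate number as a block it was −23.7 points (2 pairs, exact permutation p = 0.5). The labels do not say that a number pairs libraries, and the deviations of same-numbered KO-iMOS libraries correlated at 0.019 over these regions. Unknown depth limits every statement that a peak is absent.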
